A study of Mus musculus with 12 samples.

Results

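The genes described here encode 2 chains of laminin-332, Lamb3 (the β3 chain) and Lama3 (the α3 chain), and both subunits of its hemidesmosome receptor, the α6β4 integrin (Itga6 and Itgb4). They were taken as all probe sets whose platform annotation gave exactly 1 of these symbols, which were 5 probe sets of 22626 tested (4 genes of 12393): 1417812_a_at for Lamb3, 1427512_a_at for Lama3, 1422445_at and 1422444_at for Itga6, and 1427387_a_at for Itgb4. The genes were chosen by their levels and group means on these same 12 arrays. The members' levels and differences are therefore given as a description, with no test, and a count of members past a threshold supports nothing. RNA came from epithelial scrapings of the ileum, the last segment of the small intestine, of male C57BL/6 mice aged 6 to 8 weeks. The 4 groups of 3 arrays were POR-null mice on quercetin, POR-null mice on the control diet, wild-type mice on quercetin and wild-type mice on the control diet. POR is cytochrome P450 reductase, which passes electrons to microsomal P450 enzymes. All mice were kept on a soya-free powdered RM3 diet for 14 days and then had either that diet alone or the diet with the plant flavonol quercetin at 6.2 g per kg (7 mg per mouse) for 24 h. Each array held the pooled RNA of 3 mice, so the spread between arrays is a spread between pools. No label names the cells that lost the reductase or the promoter used to delete it, and Por itself is not analysed here, so the genotype labels were not checked against the targeted gene.

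Laminin-332 is a trimer, with the α3 and β3 chains among its parts, that epithelial cells secrete into the basement membrane, the sheet on which they rest. Outside the cell it is bound by the α6β4 integrin, whose long β4 tail attaches through plectin to keratin filaments, and this assembly is the hemidesmosome. In the intestine hemidesmosomes are of the simple kind, without collagen XVII, and laminin-332 is known chiefly from the villus.

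All 9 epithelial markers, among them Epcam and Vil1, had a mean level above that of at least 85.7% of all probe sets, and the ileal bile acid binding protein gene Fabp6 lay at 12.42 (log2 level, mean over the 12 arrays). Of 9 endothelial markers, cells that also use α6 integrin, 4 lay above the median probe set, and of 6 squamous or basal epithelial markers, 2 did. Pairs of arrays of the same group correlated across probe sets with r of 0.9917 to 0.9956. Wild-type control replicate 2 stood apart, at -25.57 on the first principal component (19.7% of the variance) against -10.80 to 10.56 for the other 11 arrays. Many differences of the members and of named genes that change sign or move by over 1.5 times without it are given both ways below. Not all are, among those left out being the quercetin differences of Lama3 and Mst1r in wild-type mice.

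Lamb3 was the member that separated the genotypes. Its RefSeq promoter windows are shown because it is the gene on which the genotype pattern rests and RefSeq gives it 2 starts. Whether its probe set tells these starts apart was not examined. Each window runs from 250 bases before to 50 bases after a start on the plus strand of chromosome 1 in GRCm38.p6, at chr1:193301744-193302043 and chr1:193301993-193302292. Capitals mark the 51 bases that both windows share.
Lamb3 window 1: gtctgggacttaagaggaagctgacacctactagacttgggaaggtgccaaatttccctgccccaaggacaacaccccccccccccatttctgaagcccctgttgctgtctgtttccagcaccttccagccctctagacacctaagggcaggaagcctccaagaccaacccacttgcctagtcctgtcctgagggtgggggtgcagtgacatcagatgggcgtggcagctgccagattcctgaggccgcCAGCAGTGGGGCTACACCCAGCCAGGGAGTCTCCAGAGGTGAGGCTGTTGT
Lamb3 window 2: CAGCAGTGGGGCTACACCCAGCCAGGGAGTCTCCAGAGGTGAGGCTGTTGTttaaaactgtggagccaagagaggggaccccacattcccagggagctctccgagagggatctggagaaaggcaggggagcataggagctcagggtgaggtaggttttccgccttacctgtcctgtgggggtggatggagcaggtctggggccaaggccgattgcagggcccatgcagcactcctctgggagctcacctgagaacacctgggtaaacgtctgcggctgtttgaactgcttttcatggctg
Neither window held TGANTCA, the binding letters of AP-1, or TATAAA, the TATA box letters, on either strand. Of 32851 windows of the same length, 7.81% held the first and 13.6% the second. The sequence table held no window for the other members.

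Lamb3 was at 9.82, 9.59 and 9.51 in POR-null mice on quercetin and at 9.66, 9.73 and 9.63 in POR-null mice on the control diet, against 8.98, 9.31 and 8.95 in wild-type mice on quercetin and 9.16, 9.26 and 9.00 in wild-type mice on the control diet (log2 level, replicates 1 to 3). All 6 POR-null arrays lay above all 6 wild-type arrays, with the lowest POR-null array at 9.51 and the highest wild-type array at 9.31. Group means were 9.64 ± 0.16 and 9.67 ± 0.05 in POR-null mice on quercetin and on the control diet, and 9.08 ± 0.20 and 9.14 ± 0.13 in wild-type mice on the same diets (SD, n = 3). The difference between POR-null and wild-type mice was 0.56 ± 0.11 on quercetin and 0.53 ± 0.11 on the control diet (log2, SE of the limma fit), which is 1.47-fold and 1.45-fold. Averaged over the diets it was 0.55 ± 0.08. The quercetin difference of Lamb3 was smaller than its standard error in each genotype, at -0.03 ± 0.11 in POR-null mice and -0.06 ± 0.11 in wild-type mice, and the difference between those effects was 0.03 ± 0.15. Without wild-type control replicate 2 the genotype difference on the control diet was 0.59, the quercetin difference in wild-type mice 0.00 and the difference between the quercetin effects -0.03.

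The background for such a separation depends on the number of arrays. With 3 arrays against 3, 7.28% of all probe sets had every POR-null array above every wild-type array on quercetin and 5.15% on the control diet. With all 6 against 6 it was 0.172% (39 of 22626 probe sets, Lamb3 among them). Among comparisons of genotype within a diet or of diet within a genotype, the only other member to separate was Lama3, with quercetin in POR-null mice. The shares of all probe sets that lay wholly lower in POR-null mice were 5% on quercetin and 8.71% on the control diet. Wholly higher on quercetin were 7.45% in POR-null mice and 5.33% in wild-type mice, and wholly lower 8.08% in wild-type mice. Limma's adjusted p stayed at or above 0.05 for Lamb3 in each contrast, so its level is not called as changed. Of the 5 member probe sets, 0 passed in any contrast. Over all probe sets, 0.00442% (1) passed for quercetin in wild-type mice and 0% in each other contrast. At an unadjusted p under 0.05 there was 1 member of 5 for quercetin in POR-null mice (6.65% of all probe sets), 1 for genotype on the control diet (10.1%), 2 for genotype on quercetin (7.01%), 0 for quercetin in wild-type mice (10.9%), 0 for the interaction (10.3%) and 2 for genotype averaged over the diets (7.12%).

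**Figure D1:**
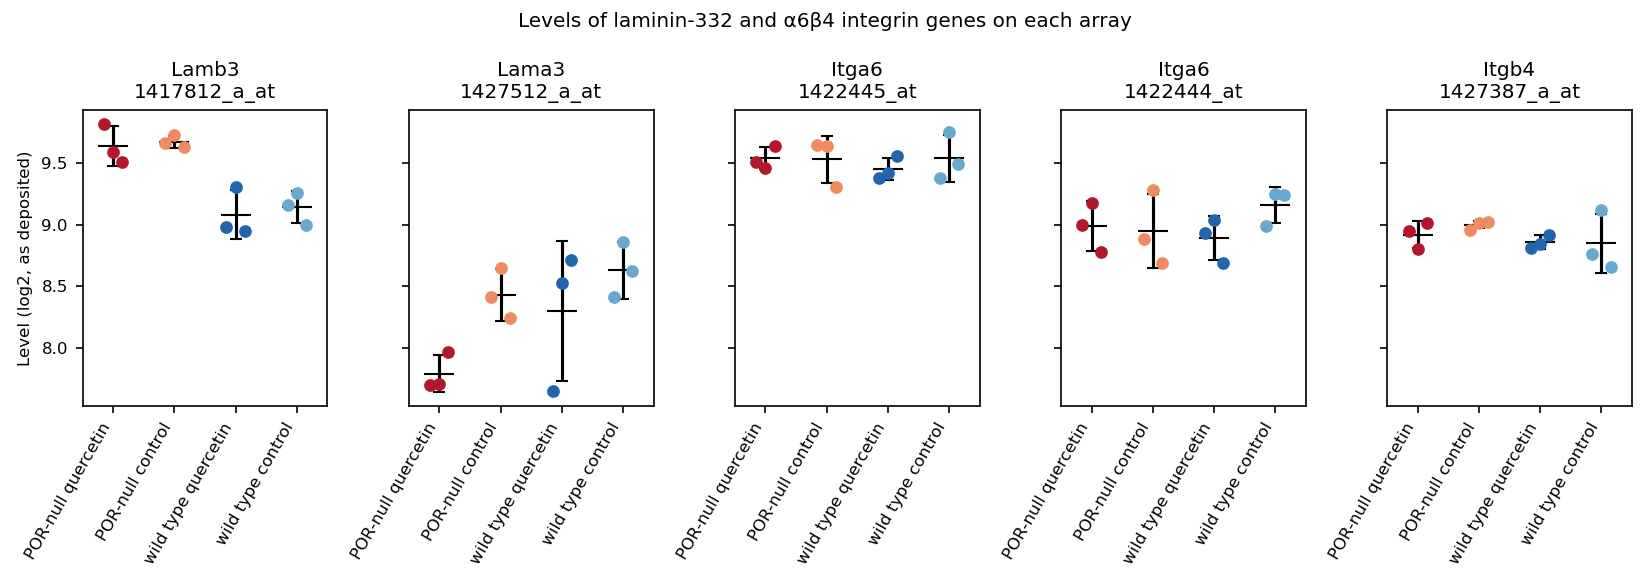
Deposited log2 level (y axis) of the 5 probe sets on each of the 12 arrays, by group (x axis), with a dot for each array and the group mean ± SD (n = 3). The 6 POR-null dots of Lamb3 lie at 9.51 to 9.82 and the 6 wild-type dots at 8.95 to 9.31, while the 2 Itga6 probe sets overlap between all groups and Lama3 is lowest in POR-null mice on quercetin. Heights of different probe sets cannot be compared with each other.

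Lama3, the partner chain, did not follow Lamb3. It was at 7.70, 7.71 and 7.97 in POR-null mice on quercetin and at 8.41, 8.65 and 8.24 in POR-null mice on the control diet, against 7.65, 8.53 and 8.71 in wild-type mice on quercetin and 8.41, 8.86 and 8.62 in wild-type mice on the control diet. In POR-null mice all 3 quercetin arrays lay below all 3 control arrays, as 5.11% of all probe sets did. In wild-type mice only quercetin replicate 1 was that low. It had the lowest level of all 12 arrays, and the other 2 quercetin arrays lay within the range of the control arrays. The difference of quercetin from control was -0.64 ± 0.21 in POR-null mice, a level 1.56-fold lower, and -0.33 ± 0.21 in wild-type mice. Without wild-type quercetin replicate 1 the wild-type difference was -0.01. The interaction was -0.31 ± 0.30, and -0.63 without that array. The genotype difference was -0.50 ± 0.21 on quercetin (-0.83 without that array) and -0.20 ± 0.21 on the control diet (-0.08 without wild-type control replicate 2), opposite in sign to that of Lamb3. Lama3 also had the widest spread within groups of the 5 probe sets. Its residual SD of 0.331 exceeded that of 98.5% of all probe sets, and that of Lamb3, at 0.146, exceeded 78.0%.

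Itga6, the α6 subunit, which also pairs with β1 integrin in other cells, overlapped between all groups on both of its probe sets. On 1422445_at it was at 9.51, 9.46 and 9.64 in POR-null mice on quercetin and at 9.65, 9.64 and 9.31 in POR-null mice on the control diet, against 9.38, 9.42 and 9.56 in wild-type mice on quercetin and 9.38, 9.75 and 9.49 in wild-type mice on the control diet. On 1422444_at it ranged from 8.78 to 9.18 and from 8.69 to 9.28 in POR-null mice on quercetin and control diet, against 8.69 to 9.04 and 8.99 to 9.25 in wild-type mice on the same diets. The genotype difference averaged over the diets was 0.04 ± 0.08 on the first probe set and -0.06 ± 0.10 on the second (0.09 and -0.03 without wild-type control replicate 2). The second probe set had the larger quercetin difference in wild-type mice, -0.27 ± 0.15 against -0.09 ± 0.11 on the first, and 0.04 ± 0.15 against 0.00 ± 0.11 in POR-null mice. Without wild-type control replicate 2 the wild-type values were -0.23 on the second probe set and 0.02 on the first, which changed sign. With group means removed, the 2 probe sets correlated weakly over the 12 arrays (Pearson r = 0.237, exact permutation p = 0.608; Spearman rho = 0.186, exact permutation p = 0.668; r = -0.205 without the 2 arrays farthest from the median).

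Itgb4, the β4 subunit that is specific to the hemidesmosome integrin, was at 8.95, 8.80 and 9.01 in POR-null mice on quercetin and at 8.96, 9.01 and 9.02 in POR-null mice on the control diet, against 8.81, 8.84 and 8.92 in wild-type mice on quercetin and 8.76, 9.12 and 8.66 in wild-type mice on the control diet. The groups overlapped in both genotype comparisons and both diet comparisons. The genotype difference was 0.06 ± 0.10 on quercetin and 0.15 ± 0.10 on the control diet. The quercetin difference was -0.08 ± 0.10 in POR-null mice and 0.01 ± 0.10 in wild-type mice. The highest of the 12 arrays was wild-type control replicate 2, and without it the difference on the control diet was 0.29 ± 0.08 (0.17 averaged over the diets, in place of 0.11) and the quercetin difference in wild-type mice was 0.15 ± 0.08.

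**Figure D2:**
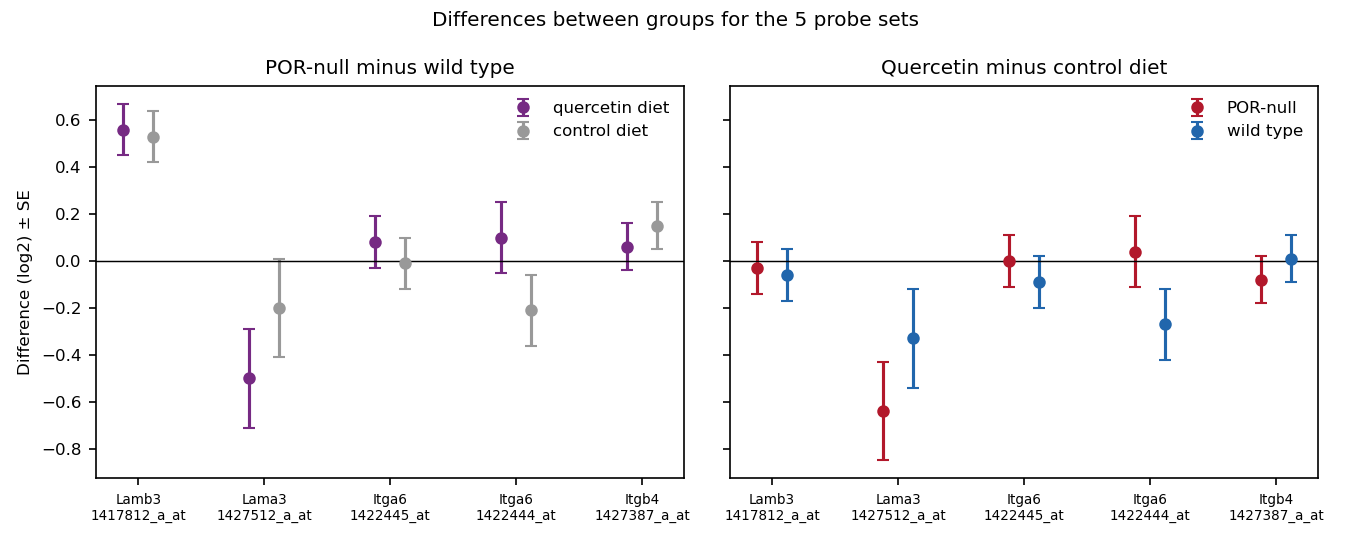
Difference in log2 level (y axis, ± SE of the limma fit, 3 arrays per group) for the 5 probe sets (x axis), between POR-null and wild-type mice on each diet (left) and between quercetin and control diet in each genotype (right). Lamb3 has nearly the same genotype difference on both diets (0.56 and 0.53) and quercetin differences near 0, and Lama3 has its lowest value, -0.64, for quercetin in POR-null mice.

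Whether subunits of a complex varied together was asked over the 12 arrays with group means removed, for the 6 pairs of genes, each gene by its probe set with the highest mean. No pair passed the exact permutation test within groups (two-sided, adjusted by Benjamini-Hochberg over the 6 pairs). The laminin chain Lama3 and its receptor subunit Itga6 had the highest value (r = 0.647, exact permutation p = 0.0154, adjusted p = 0.0926; rho = 0.683, exact permutation p = 0.0247, adjusted p = 0.148; r = 0.776 without the 2 arrays farthest from the median of Lama3), and with the mean of both Itga6 probe sets r was 0.41. The integrin partners Itga6 and Itgb4 had r = 0.613 (exact permutation p = 0.103, adjusted p = 0.205; rho = 0.571, exact permutation p = 0.0826, adjusted p = 0.248; r = 0.65 without the 2 farthest arrays), and r = 0.23 without wild-type control replicate 2. The 2 laminin chains Lamb3 and Lama3 had r = 0.192 (exact permutation p = 0.8, adjusted p = 0.8; rho = 0.0841, exact permutation p = 0.822, adjusted p = 0.822; r = 0.135 without the 2 farthest arrays). Lamb3 fell into separate ranges by genotype, so correlations of its levels over all arrays were not tested and are only described further below. Within a genotype (n = 6) its r with the other members lay between -0.00544 and 0.402, with exact permutation p of 0.453 or more (adjusted p of 0.98 or more), and rho between -0.145 and 0.145 (exact permutation p of 0.778 or more). Without the 2 farthest arrays these r ran from -0.623 to 0.936 and so depend on those arrays. The labels name no slide or date, so no batch could be examined.

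The other laminin chains differed little between the genotypes. Of 8 measured, 2 lay above the median level of all probe sets, so most were dim. Their difference of POR-null from wild type, averaged over the diets, ran from -0.03 to 0.06, with a median of 0.01 against 0.00 over all 12393 genes, and 6 of 8 were positive. Lama5, the main α chain of intestinal epithelial basement membrane, differed by 0.04 on quercetin and -0.03 on the control diet. Lamc1, the common γ chain of other laminins, differed by 0.03 and 0.08, Lama1, an early embryonic chain, by 0.06 and -0.13, and Lamb2 by 0.09 and -0.09. Without wild-type control replicate 2 the control diet values were 0.06 for Lama5 and 0.05 for Lamc1. With quercetin Lamc1 differed by 0.08 ± 0.09 in POR-null mice and 0.13 ± 0.09 in wild-type mice. Limma passed 0 of the 8 in any contrast, and 0 had an unadjusted p under 0.05.

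Of 12 measured laminin receptors and hemidesmosome partners, limma also passed 0 in any contrast. Their median genotype difference averaged over the diets was -0.01, with 6 positive and 6 negative, and 1 had an unadjusted p under 0.05. That gene, named after its value was seen, was Itga3, the α3 subunit of the other laminin-332 receptor (0.13 ± 0.05, adjusted p = 0.654 by limma). It ranged from 8.63 to 8.75 in POR-null mice on quercetin and 8.56 to 8.70 in POR-null mice on the control diet, against 8.46 to 8.54 and 8.41 to 8.62 in wild-type mice on the same diets. Its partner Itgb1 differed by 0.16 ± 0.10 (0.09 without wild-type control replicate 2). Cd9, a tetraspanin that binds integrins, had the smallest p of this list for quercetin in wild-type mice and for the interaction. It was at 8.05, 7.93 and 8.16 in POR-null mice on quercetin and at 8.35, 8.03 and 8.02 in POR-null mice on the control diet, against 7.86, 8.20 and 8.28 in wild-type mice on quercetin and 7.85, 7.75 and 7.66 in wild-type mice on the control diet. Its wild-type control arrays were the lowest group. The interaction was -0.45 ± 0.17 (limma adjusted p = 0.434) and the quercetin difference in wild-type mice 0.36 ± 0.12 (adjusted p = 0.309). Dst, the plakin that links integrins to keratin in skin, had an interaction of -0.31 ± 0.17 and Col17a1, the collagen of skin hemidesmosomes, a quercetin difference of -0.12 ± 0.09 in wild-type mice at a dim mean level of 3.47. Plec, which encodes plectin, differed by 0.07 between the genotypes on quercetin and by 0.03 on the control diet (0.11 without wild-type control replicate 2).

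**Figure D3:**
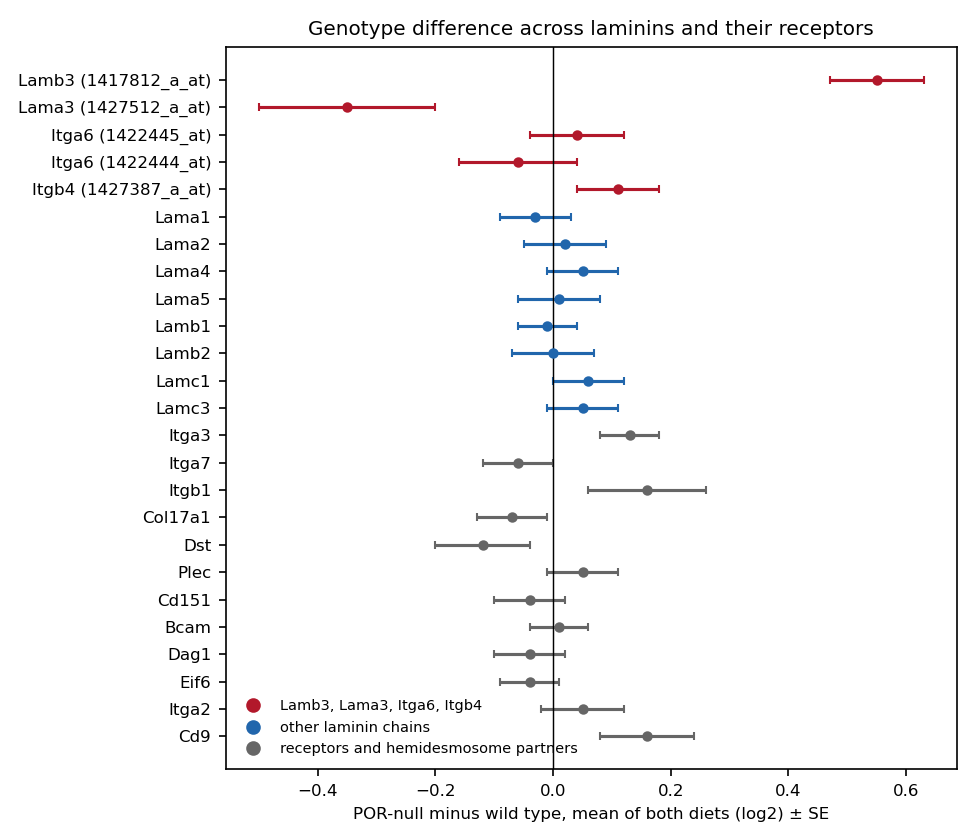
Difference of POR-null from wild type averaged over the diets (x axis, log2, ± SE of the limma fit over 12 arrays) for the 5 member probe sets, 8 other laminin chains and 12 receptors and hemidesmosome partners (y axis). Lamb3 is at 0.55 and Lama3 at -0.35, while the other laminin chains lie between -0.03 and 0.06 and the receptors and partners between -0.12 and 0.16.

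The 99 genes of all 7 lists, among them keratins and AP-1 and wound response genes, were described by the same fit. Limma passed 0 of them in any contrast. For quercetin in wild-type mice 1 was higher and 12 were lower at an unadjusted limma p under 0.05, for genotype averaged over the diets 8 and 8. For quercetin these are 1.01% higher and 12.1% lower of the listed genes, beside 5.08% and 5.33% of all genes. For genotype they are 8.08% each way, beside 3.47% and 3.6% of all genes. The lists were chosen with earlier results of these data known, so a share above that of all genes supports nothing. Of the 12 lower on quercetin in wild-type mice, 7 were AP-1 and wound response genes and 2 were basement membrane genes. The lists of laminin-332 processing, focal adhesion and keratins gave 1 each. Of 16 basement membrane genes, 15 were lower on quercetin in wild-type mice, with a median of -0.09 against -0.02 over all genes, of which 57.1% were lower. Tinagl1, a matrix protein that binds integrins, had the smallest p there (-0.38 ± 0.14, adjusted p = 0.35), and it was the only listed gene to pass in any alternative, without wild-type control replicate 1 (-0.57, adjusted p = 0.0486). Without wild-type control replicate 2, the array that stood apart, its difference was -0.20. Fbln1, a fibulin of basement membranes, differed by -0.55 ± 0.21 on quercetin in wild-type mice and had an interaction of 0.69 ± 0.29 (adjusted p = 0.461), and Agrn, a heparan sulphate proteoglycan, an interaction of 0.25 ± 0.12. Fbln1 was highest on wild-type control replicate 2, without which its quercetin difference was -0.24 and its interaction 0.37, and the interaction of Agrn 0.16. In POR-null mice the quercetin difference was positive for 13 of the 16 basement membrane genes (median 0.04), beside 56.1% of all genes (median 0.02). Nid2, a nidogen that joins laminin to collagen IV and was picked after its values were seen, was lower on all 6 POR-null arrays than on all 6 wild-type arrays (0.141% of all probe sets were), by -0.15 ± 0.04 (adjusted p = 0.448) at a dim mean level of 3.54.

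Of 13 genes that process laminin-332 or inhibit its proteases, Timp1, a metalloproteinase inhibitor, had an interaction of 0.32 ± 0.11 (limma adjusted p = 0.413) and a quercetin difference of -0.20 ± 0.08 in wild-type mice. The membrane protease gene Hpn had an interaction of 0.31 ± 0.12 at a dim mean level of 4.26, above 16.7% of probe sets. Bmp1, the protease that trims laminin chains, had a quercetin difference of -0.16 ± 0.11 in wild-type mice (-0.07 without wild-type control replicate 2). The median genotype difference of this list over both diets was 0.02, with 7 positive and 6 negative. Of 21 focal adhesion and integrin signalling genes, 13 were positive and 8 negative (median 0.02). Met, the receptor of hepatocyte growth factor, which is known to signal with α6β4 integrin in tumour cells, was at 6.30, 6.32 and 6.15 in POR-null mice on quercetin and 6.36, 6.32 and 6.08 in POR-null mice on the control diet, against 5.95, 5.92 and 6.08 in wild-type mice on quercetin and 6.27, 6.33 and 6.33 in wild-type mice on the control diet. The 3 wild-type quercetin arrays lay below the 3 wild-type control arrays (-0.33 ± 0.08, adjusted p = 0.269), and the interaction was 0.33 ± 0.12 (adjusted p = 0.427). Itga5, the fibronectin receptor subunit, had an interaction of 0.34 ± 0.11, and Mst1r, a receptor related to Met, a quercetin difference of -0.22 ± 0.10 in wild-type mice.

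Keratins, the filaments to which hemidesmosomes attach, had a median genotype difference of -0.02 over both diets, with 4 of 10 positive. Those named by p were Krt5, a keratin of basal cells (interaction 0.30 ± 0.12), Krt17 and Krt23. Krt17 had an interaction of 0.20 ± 0.09 and a quercetin difference of -0.18 ± 0.07 in wild-type mice, at a dim mean level of 4.60. Krt23 had a quercetin difference of -0.21 ± 0.13 in wild-type mice, and -0.09 without wild-type control replicate 2. Of 19 AP-1 and epithelial wound response genes, 14 were negative for genotype over both diets, with a median of -0.07 (all genes 0.00), and 16 were lower on quercetin in wild-type mice, with a median of -0.23 (all genes -0.02, with 57.1% lower). In that last comparison all 4 villus tip markers were lower too (median -0.58, 0 past the threshold), with the highest villus tip score, 0.92, on wild-type control replicate 2. The part of villus content in that shift was not tested. The tight junction gene Cldn4 (-0.80 ± 0.21) and Errfi1, an inhibitor of EGF receptor signalling (-0.61 ± 0.16), had the smallest p for quercetin in wild-type mice (limma adjusted p = 0.269 for each). Fosl1, a subunit of AP-1, had an interaction of 0.36 ± 0.10 (adjusted p = 0.351), and Sprr2h, an envelope protein gene, 0.35 ± 0.14. Errfi1 had the smallest p of all listed genes for genotype over both diets, with the opposite sign to Lamb3 (-0.63 ± 0.11, adjusted p = 0.13).

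The genes most like Lamb3 over the 12 arrays, among 7309 other genes above the median level, were Prss30, a trypsin-like serine protease (r = 0.919), Dusp12, a phosphatase (0.906), Glul, glutamine synthetase (0.905), Traf3ip2, an adaptor of interleukin-17 receptors (0.887), Otud7b, a deubiquitinase (0.887), and Chmp1a, a membrane remodelling subunit (0.882). All 12 points share the genotype step, so the values describe these arrays and carry no test. With group means removed r was 0.677 for Prss30, 0.554 for Dusp12, 0.718 for Glul, 0.751 for Traf3ip2, 0.841 for Otud7b and 0.778 for Chmp1a. These genes were picked by r over the same arrays, which includes the variation within groups. High values here partly follow from that choice and support nothing. Prss30 had group means of 10.76 and 10.62 in POR-null mice on quercetin and control diet, against 10.13 and 10.22 in wild-type mice on the same diets, a difference of 0.51 ± 0.08 over both diets. Glul differed by 0.51 ± 0.09, and the other 4 by 0.13 to 0.25. Of the complex partners, Itgb4 had r = 0.501 with Lamb3, above 92.1% of the candidates, Itga6 0.184 (above 67.1%) and Lama3 -0.296 (above 15.3%).

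Marker genes of other cell types are given beside the Lamb3 difference because scrapings can hold varied amounts of tissue beneath the epithelium, and in pooled tissue fewer cells of a type cannot be told apart from less RNA per cell. Scores were the mean of a list's genes after each was centred over the arrays (log2). The epithelial score of 9 genes ranged from -0.03 to 0.02 and from 0.01 to 0.03 in POR-null mice on quercetin and control diet, against -0.07 to 0.02 and -0.04 to 0.04 in wild-type mice on the same diets. The endothelial score ranged from 0.00 to 0.03 and -0.07 to -0.01 in POR-null mice, against -0.05 to 0.08 and 0.00 to 0.05 in wild-type mice. The smooth muscle and stroma score (17 genes) moved with genotype. It ranged from 0.08 to 0.46 and -0.41 to 0.74 in POR-null mice on quercetin and control diet, against -0.52 to 0.26 and -0.52 to -0.16 in wild-type mice. Over both diets 16 of the 17 genes were higher in POR-null mice, beside 48.9% of all genes, with none of the 17 past the threshold. POR-null control replicate 2 had a smooth muscle and stroma score of -0.41 and a Lamb3 level of 9.73, and wild-type quercetin replicate 2 a score of 0.26 and a Lamb3 level of 9.31. The villus tip score of 4 genes ranged from 0.04 to 0.27 and -0.41 to -0.16 in POR-null mice on quercetin and control diet, against -0.65 to 0.04 and -0.01 to 0.92 in wild-type mice. The part of stroma or villus content in the Lamb3 difference was not tested.

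**Figure D4:**
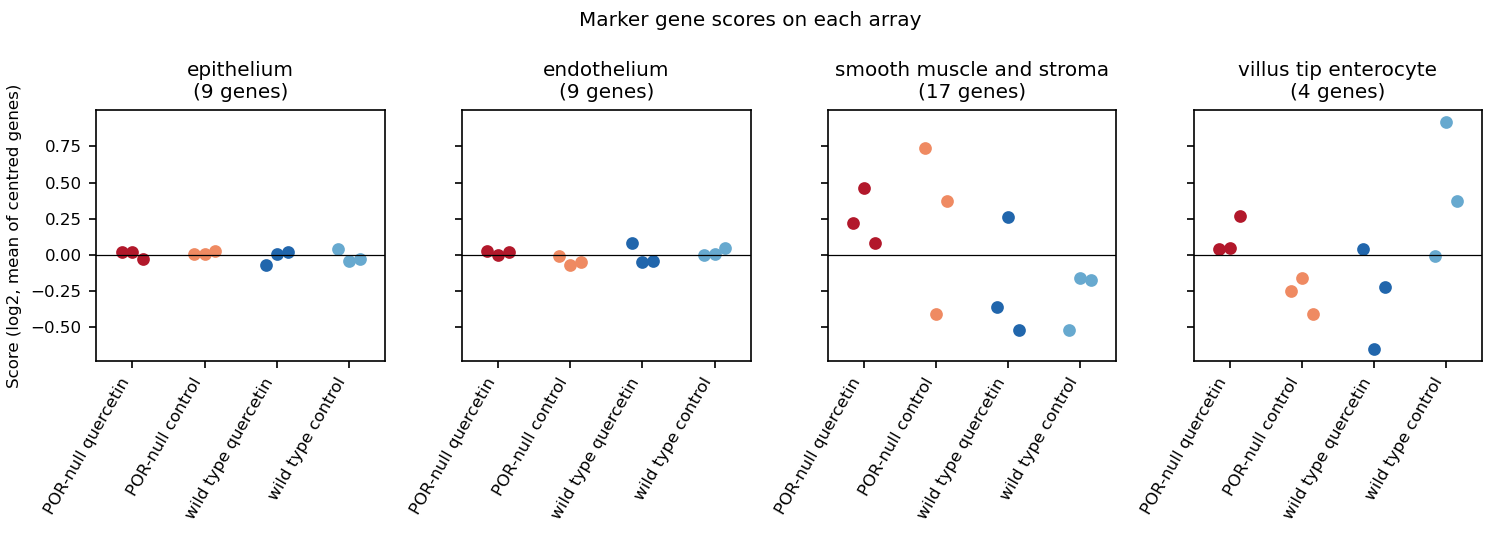
Score of 4 marker lists (y axis, mean of centred log2 levels) on each of the 12 arrays, by group (x axis), with a dot for each array. Epithelial and endothelial scores stay within -0.07 to 0.08, while the smooth muscle and stroma score spans -0.52 to 0.74 and the villus tip score -0.65 to 0.92.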

How the data were processed

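The authors deposited log2 expression levels, 1 per probe set and array, from 12 Affymetrix 430A arrays. Per the submitters' processing notes MAS5 and RMA were used, with no role or version given. The values ran from 2.66 to 14.04 and were used as deposited. Array control probe sets (64 of 22690) were left out. The platform annotation gave 1 symbol to 20380 of the 22626 probe sets tested, several to 691 and none to 1555, and 20351 were matched by gene ID to RefSeq names of GRCm38.p6. No detection calls were used, so dimness is judged from levels.

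All probe sets were fitted at once, group by group mean, by lmFit and eBayes of limma 3.58.1 (R 4.3.3), with Benjamini-Hochberg adjustment over all probe sets and a threshold of 0.05. The number of arrays limits the precision. The genotype difference averaged over the diets was added after seeing the data. Groups came from the sample titles. Genes other than members were represented by the probe set with the highest mean. Of 7 lists, all genes that passed were to be named, then the 2 lowest in p for the interaction and the 2 lowest for quercetin in wild-type mice, and the 6 genes most correlated with Lamb3. Members and lists were chosen with earlier results of these data known. The fit was also run on simulated data with independent noise. The outcome is not given here, and shifts shared by the probe sets of an array were not simulated. Alternatives were other scalings, filters, variance models, array weights, a replicate block and leaving out each array. Python 3.11.15 and matplotlib 3.10.9 drew the figures.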

Additional observations from a re-analysis of the deposited data

How the results depend on the processing

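The Lamb3 difference of POR-null from wild type kept its sign in all alternatives. It lay between 0.47 and 0.68 on quercetin, 0.46 and 0.59 on the control diet, and 0.50 and 0.60 averaged over the diets. In that averaged contrast, added after seeing the data, it passed limma's threshold in 5 of 19 alternatives (trend and robust, array weights, the replicate block, without wild-type control replicate 2, and without wild-type quercetin replicate 2). Lamb3 was chosen on these same arrays, so these passes support nothing. The quercetin difference of Lama3 in POR-null mice stayed between -0.74 and -0.53, and in wild-type mice it lay between -0.54 and -0.01. Counts of probe sets past the threshold were 1 for quercetin in wild-type mice and 0 elsewhere. They became 7 without probe sets below the lower quartile for quercetin in wild-type mice. With trend and robust they were 7 for quercetin in wild-type mice, 5 for genotype on quercetin, 1 for genotype on the control diet, 2 for the interaction and 4 for genotype averaged over the diets, and with array weights 4 for the last. With the replicate block they were 5, 2 (genotype on quercetin), 3 (interaction) and 2 (genotype averaged), and with only the arrays compared 2 for quercetin in wild-type mice and 2 for genotype on quercetin. Leaving out each array gave 1 to 59 for quercetin in wild-type mice, 0 to 15 for genotype on the control diet, 0 to 1 for genotype on quercetin, 0 to 9 for the interaction and 0 to 6 for genotype averaged. The 59, 15 and 9 came without wild-type control replicate 1 and the 6 without replicate 2. Of the listed genes 0 to 1 passed for quercetin in wild-type mice. The labels do not say whether replicate numbers pair the pools, and no pairing was seen over all probe sets. With group means removed, arrays of the same number correlated with r of -0.179 to 0.162 (median 0.0164) and others with -0.219 to 0.169 (median 0.00143). No correlation between members passed under any alternative run. The cause of these changes was not tested. Probe sets without detection calls limit what can be said of the dim laminin chains.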
